A study of Mus musculus with 6 samples.

Results

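AMP-activated protein kinase (AMPK) is the cell's sensor of low energy, and the genes described here are those of its subunits and of the kinases that switch it on. They were taken by name from a fixed list of 9 genes, all of which were found among the 16871 genes of the files. Prkaa1 and Prkaa2 encode the catalytic alpha subunits, Prkab1 and Prkab2 the scaffolding beta subunits, and Prkag1 and Prkag2 the gamma subunits, which bind AMP, ADP and ATP. Stk11 (the kinase LKB1), Camkk2 and Map3k7 (the kinase TAK1) encode upstream kinases. All 9 genes had counts in each of the 6 libraries, and all passed the filter on low counts and were tested.

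An AMPK complex holds an alpha, a beta and a gamma subunit. Binding of AMP or ADP to the gamma subunit favours phosphorylation of the activation loop of the alpha subunit by LKB1, while CaMKK2 acts on the same site when cell calcium rises. Active AMPK restrains fatty acid and cholesterol synthesis and promotes fat oxidation and autophagy, and in macrophages it is known for limiting lipid loading and inflammatory signalling. Transcript levels, the quantity measured here, do not report the phosphorylation or the activity of the kinase.

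RNA was sequenced from bone marrow-derived macrophages, grown in culture for 7 days from marrow of C57BL/6 mice aged 8 weeks and then treated with oxidised low-density lipoprotein (oxLDL). The 3 DKO libraries came from cells with knockouts of both acetaldehyde dehydrogenase 2 (ALDH2) and the LDL receptor, and the 3 LKO libraries, the control, from cells with the LDL receptor knockout alone. Every library thus carries the LDL receptor knockout and the oxLDL treatment, so neither can be assessed. The labels give neither how the alleles were made nor whether libraries of a group came from separate mice, and the p-values therefore cover only the spread among these libraries, which may be technical.

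Depth was between 10936563 and 10987584 expected counts in DKO and between 10760625 and 10930139 in LKO. Aldh2 stood between 7.00 and 7.34 FPKM (the authors' read level scaled to transcript length and library size) in DKO and between 236 and 249 FPKM in LKO, as the labels state. All 10 macrophage markers listed were detected, with summed levels between 11180 and 12360 FPKM in DKO and between 9997 and 10710 FPKM in LKO, most of it from Lyz2 (7616 ± 581 FPKM in DKO and 6105 ± 337 FPKM in LKO). Of these markers 5 were higher in DKO and 1, Adgre1, was lower (1755 ± 31.8 FPKM in DKO and 1938 ± 95.8 FPKM in LKO, edgeR adjusted p = 0.0183). A threshold of 0.05 on the edgeR adjusted p was met by 14.3% of all 11809 genes tested.

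Among the AMPK genes, 1 of 9 passed that threshold, a share of 11.1% against the 14.3% of all genes. It was Prkaa2, lower in DKO, a direction in which 6.88% of all genes passed; none was higher, against 7.42% of all genes. Over the 9 genes the median of the log2 fold changes was 0.06, against 0.0002 over all genes tested. By level, the FPKM values of DKO and LKO did not overlap for 2 of the 9 genes, Prkaa2 and Prkab1, while 29.6% of all genes tested had groups that did not overlap. Neither share lies above that of all genes, so the counts by themselves say nothing particular about AMPK.

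**Figure D1:**
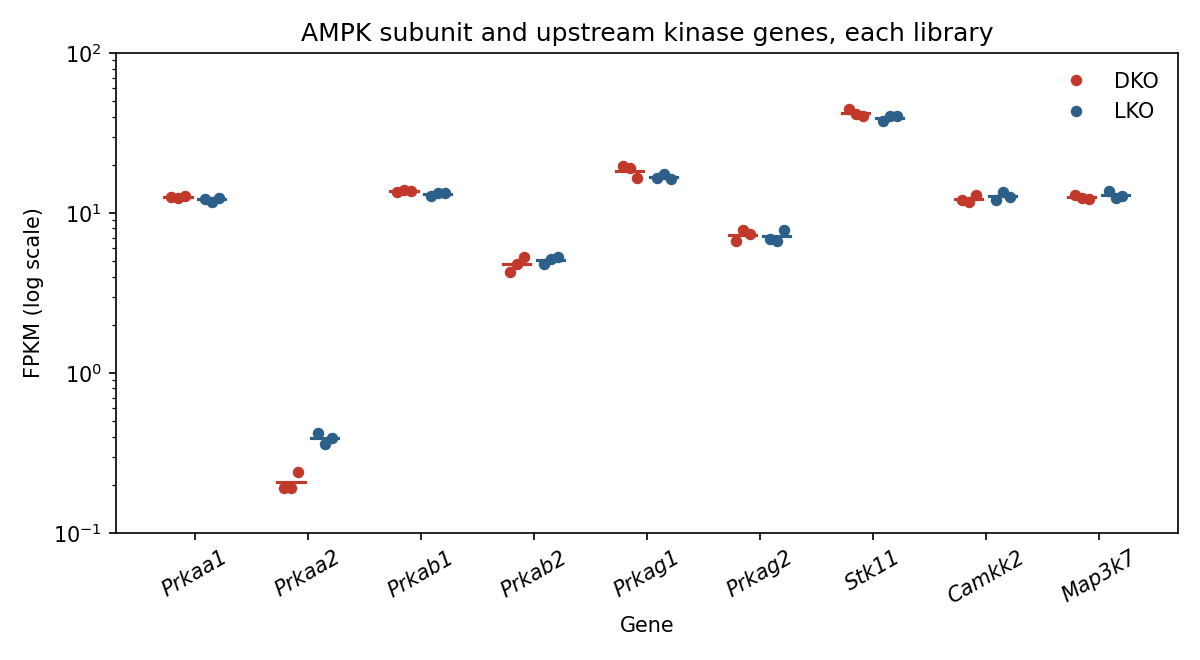
FPKM (log scale) of the 9 AMPK genes in each library, with DKO in red, LKO in blue and a line at the group mean (n = 3 each). Prkaa2 lies far below the other genes and is the one whose groups stand visibly apart, at 0.19 to 0.24 FPKM in DKO and 0.36 to 0.42 FPKM in LKO.

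The catalytic subunit genes differed from each other both in level and in how they compared between genotypes. Since the results turn on this pair of paralogous genes, the 250 bases before the start of each are shown, from RefSeq on build GRCm38.p6, with GC boxes (GGGCGG or its complement CCGCCC) in capitals. The Prkaa1 sequence is chr15:5143611-5143860 on the plus strand and the Prkaa2 sequence is chr4:105109899-105110148 on the minus strand.
Prkaa1: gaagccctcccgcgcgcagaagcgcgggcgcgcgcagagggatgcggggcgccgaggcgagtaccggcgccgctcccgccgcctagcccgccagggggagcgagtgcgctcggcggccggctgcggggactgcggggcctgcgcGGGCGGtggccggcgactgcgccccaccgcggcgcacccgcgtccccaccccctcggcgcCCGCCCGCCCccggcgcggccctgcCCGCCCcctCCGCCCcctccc
Prkaa2: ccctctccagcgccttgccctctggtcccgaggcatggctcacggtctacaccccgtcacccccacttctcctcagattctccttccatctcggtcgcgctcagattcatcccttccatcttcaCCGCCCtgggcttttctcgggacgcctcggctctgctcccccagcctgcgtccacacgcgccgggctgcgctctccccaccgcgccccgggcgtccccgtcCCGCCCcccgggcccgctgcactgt

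The Prkaa1 window was 85.2% G or C and held 5 GC boxes, of which a pair overlap, while the Prkaa2 window was 70.0% G or C and held 2. The median over 32851 RefSeq promoter windows of this length was 52.4%, and 32.7% of these held a GC box on either strand. Neither window held a CCAAT box (CCAAT, in 33.9% of all windows), a TATA box (TATAAA, in 12.4%) or the E-box CACGTG (in 6.02%), on either strand. All 9 genes matched the promoter table, and 7 had a GC box in at least 1 of their windows. These letters are a description of the windows and not of any factor's binding.

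Prkaa1 (NCBI gene 105787), which encodes the alpha 1 subunit, carried nearly all of the catalytic subunit transcripts. Its FPKM was 12.64, 12.40 and 12.80 in DKO replicates 1 to 3, against 12.21, 11.78 and 12.46 in LKO replicates 1 to 3. The lowest DKO library lay just under the highest LKO library, so the groups overlapped. The log2 fold change was 0.07 ± 0.06 SE (edgeR adjusted p = 0.529), and its 95% interval reached from 0.964-fold to 1.14-fold.

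Prkaa2 (NCBI gene 108079) encodes the alpha 2 subunit, the form best known from skeletal muscle. It had 0.19, 0.19 and 0.24 FPKM in DKO, against 0.42, 0.36 and 0.39 FPKM in LKO, and every DKO library lay below every LKO library. Behind these values stood 17, 17 and 22 reads in DKO and 38, 32 and 35 reads in LKO, on a transcript of 8201 bases. Prkaa2 thus fell to 0.534-fold of its LKO level in DKO (95% interval 0.381 to 0.747). On the log2 scale the fold change was −0.91 ± 0.23 SE, with an edgeR adjusted p of 0.0103.

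The size of this difference put Prkaa2 at percentile 98.1 of all tested genes by absolute log2 fold change, while its level put it at percentile 2.24. Of the 1770 tested genes within 2-fold of its mean level of 2.47 CPM (reads per library scaled to a common depth), 4.75% passed as lower in DKO. The call rests on few reads and was lost in DESeq2, which gave the same log2 fold change of −0.91 with an adjusted p of 0.0698. With each library left out in turn it passed in all 6 fits (edgeR adjusted p between 0.0151 and 0.0488).

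The isoform make-up of the alpha class followed from these levels. Prkaa2 made up 1.48%, 1.51% and 1.84% of the summed alpha subunit FPKM in DKO, against 3.33%, 2.97% and 3.04% in LKO. Prkaa1 exceeded Prkaa2 by 61.7 ± 7.28 times in DKO and by 31.3 ± 1.92 times in LKO (ratio of FPKM, SD, n = 3 each). The summed alpha FPKM was 12.8 ± 0.225 in DKO and 12.5 ± 0.364 in LKO, and the libraries of the groups overlapped in this total.

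In bulk RNA, fewer cells of a type and less RNA per cell cannot be told apart, and markers of other marrow cells, besides those of macrophages given above, differed between the same libraries. Of 9 neutrophil markers tested, 6 were lower and none higher in DKO, with summed levels between 352 and 393 FPKM in DKO and between 545 and 608 FPKM in LKO. All 5 B cell markers tested were lower in DKO, at sums between 78.7 and 86.4 FPKM in DKO and between 103 and 115 FPKM in LKO. Of 6 stromal markers tested, 5 were higher in DKO and none lower, at sums between 55.6 and 74.8 FPKM in DKO and between 32.5 and 37.8 FPKM in LKO. Of all genes tested, 6.88% passed as lower and 7.42% as higher in DKO. The part of these marker differences in the Prkaa2 result was not tested. Of the 7 erythroid and mast cell markers, Hbb-bs and Mcpt4 were among those listed in none of the 6 libraries and so counted as 0. Whether such genes had no reads or were missing from the authors' annotation cannot be told. Hba-a1 was counted in all 6, at 0.34 to 0.84 FPKM in DKO and 0.51 to 0.69 FPKM in LKO. The sum of the list was at most 0.900 FPKM in DKO and 0.750 FPKM in LKO.

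The tested genes whose profile over the 6 libraries lay nearest to that of Prkaa2 were Dnah11, Creb5 and 2900026A02Rik. Likeness was measured as the root mean square difference of log2 CPM after centring each gene, and it was 0.065, 0.067 and 0.10 for these 3 genes. This measure favours genes with a difference between groups like that of Prkaa2. Their fold changes and p-values therefore follow from the choice and are no separate result. Creb5, for a transcription factor of the CREB family, stood at 1.85 ± 0.286 FPKM in DKO and 3.28 ± 0.197 FPKM in LKO (log2 fold change −0.85 ± 0.11 SE, edgeR adjusted p = 1.43e-05). Dnah11, for an axonemal dynein heavy chain, stood at 0.117 ± 0.021 FPKM in DKO and 0.217 ± 0.031 FPKM in LKO.

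**Figure D2:**
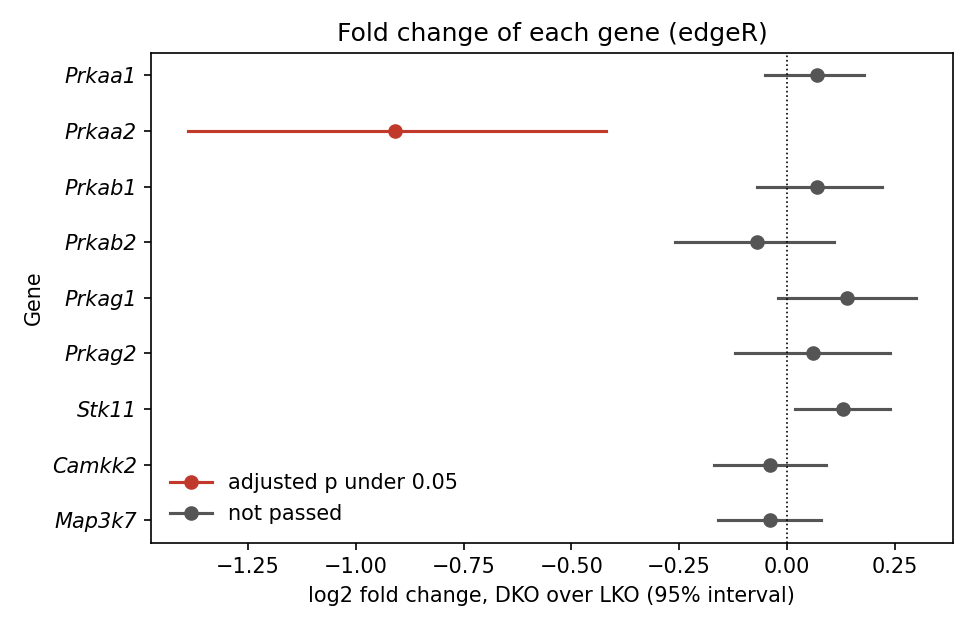
Log2 fold change, DKO over LKO, with its 95% interval for each of the 9 AMPK genes (edgeR, 3 libraries a group); red marks an adjusted p under 0.05. Prkaa2 lies at −0.91, and the other 8 genes lie between −0.07 and 0.14.

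The scaffolding beta subunit genes were close between genotypes. Prkab1 (NCBI gene 19079) stood at 13.58, 13.96 and 13.65 FPKM in DKO, against 12.85, 13.24 and 13.42 FPKM in LKO. All 3 DKO libraries lay above all 3 LKO libraries, but the distance was small next to the error of the fit (log2 fold change 0.07 ± 0.07 SE, edgeR adjusted p = 0.586). Its interval reached from 0.950-fold to 1.16-fold.

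Prkab2 (NCBI gene 108097) stood at 4.28, 4.79 and 5.32 FPKM in DKO, against 4.79, 5.17 and 5.28 FPKM in LKO. The DKO libraries spanned the LKO range, with the lowest and the highest value of the 6 both in DKO. The log2 fold change of −0.07 ± 0.09 SE did not pass (edgeR adjusted p = 0.681), and its sign turned to 0.0035 without DKO replicate 1. Prkab1 made up 74.2 ± 2.06% of the summed beta subunit FPKM in DKO and 72.2 ± 0.585% in LKO.

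Among the gamma subunit genes, which carry the nucleotide-sensing sites, Prkag1 was the more abundant in every library. Prkag1 (NCBI gene 19082) stood at 19.53, 19.03 and 16.62 FPKM in DKO, against 16.52, 17.60 and 16.23 FPKM in LKO. DKO replicates 1 and 2 were above every LKO library, while DKO replicate 3 lay among them. The log2 fold change was 0.14 ± 0.08 SE (edgeR adjusted p = 0.249), with an interval from 0.989-fold to 1.23-fold.

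Prkag2 (NCBI gene 108099) stood at 6.68, 7.84 and 7.35 FPKM in DKO, against 6.90, 6.71 and 7.87 FPKM in LKO. The groups overlapped almost entirely (log2 fold change 0.06 ± 0.09 SE, edgeR adjusted p = 0.748), and the sign turned without DKO replicate 2, at −0.0044. The transcript length behind its FPKM varied between 3229 and 3340 bases among libraries. Prkag1 made up 71.6 ± 2.67% of the summed gamma FPKM in DKO and 70.1 ± 2.56% in LKO. The third gamma gene, Prkag3, known from skeletal muscle, was counted in 3 of 6 libraries at under 0.1 FPKM and was not tested.

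**Figure D3:**
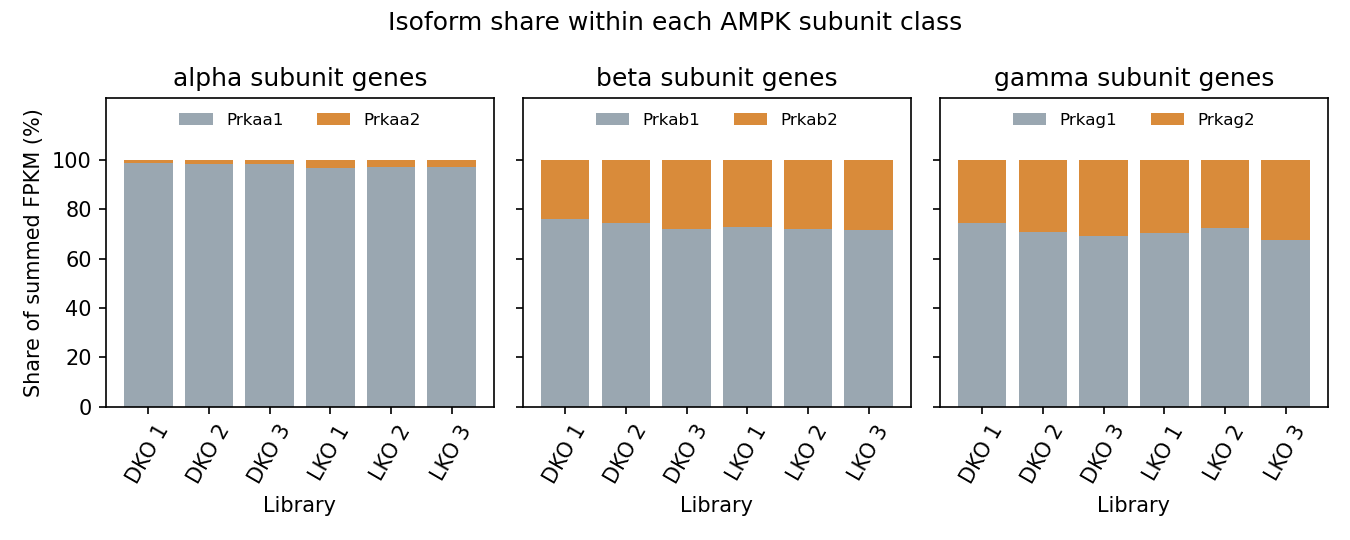
Share of each isoform in the summed FPKM of its subunit class (percent), for DKO libraries on the left and LKO libraries on the right of each panel. Prkaa2 is a thin band in every library, below 2% in DKO and about 3% in LKO, while the beta and gamma shares are alike between genotypes.

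Of the upstream kinases, Stk11 was the most abundant gene of the set. Stk11 (NCBI gene 20869), for the LKB1 kinase that phosphorylates the AMPK activation loop, stood at 44.61, 41.56 and 40.23 FPKM in DKO, against 37.33, 40.33 and 40.44 FPKM in LKO. DKO replicate 3 lay below the LKO maximum, so the groups overlapped. The log2 fold change of 0.13 ± 0.05 SE did not pass (edgeR adjusted p = 0.125), although the interval of this gene alone, from 1.01-fold to 1.18-fold, left out 1. Length varied between 2460 and 2567 bases among libraries for this gene.

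Camkk2 (NCBI gene 207565), for the calcium- and calmodulin-dependent kinase upstream of AMPK, stood at 12.12, 11.79 and 12.87 FPKM in DKO, against 12.02, 13.61 and 12.53 FPKM in LKO. The lowest value of the 6 was in DKO and the highest in LKO, with the others mixed. Its log2 fold change was −0.04 ± 0.06 SE (edgeR adjusted p = 0.744), with an interval from 0.887-fold to 1.06-fold. The sign turned without LKO replicate 2, at 0.01.

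Map3k7 (NCBI gene 26409), for the kinase TAK1 of inflammatory receptor signalling, stood at 12.90, 12.42 and 12.24 FPKM in DKO, against 13.63, 12.47 and 12.81 FPKM in LKO. The groups overlapped, and the log2 fold change was −0.04 ± 0.06 SE (edgeR adjusted p = 0.733). It was the only one of the 9 genes with fractional counts, in all 6 libraries, so part of its reads were divided with another feature. The other 8 genes had whole counts throughout.

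In order of mean FPKM over the 6 libraries, the genes ran Stk11, Prkag1, Prkab1, Map3k7, Camkk2, Prkaa1, Prkag2, Prkab2 and Prkaa2. Neighbours in that order had ranges that did not overlap, except for Prkab1, Map3k7, Camkk2 and Prkaa1, whose ranges ran into each other. Stk11 lay at percentile 84.3 of all tested genes by level and Prkab2 at percentile 34.5, with the other genes but Prkaa2 between them.

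Prkab1, Prkag2 and Camkk2 share chromosome 5 with the targeted Aldh2. Between Camkk2 and Aldh2 lie 19 tested genes in the RefSeq order of GRCm38, among them 4 higher and 2 lower in DKO (31.6%, against 14.3% of all genes). Between Prkab1 and Aldh2 lie 33 tested genes, with 6 higher and 3 lower in DKO (27.3%). Prkag2 lies further off, with 411 tested genes between, of which 17.3% passed. An effect of ALDH2 loss and one of sequence linked to the targeted allele cannot be told apart for genes so placed, and Camkk2 and Prkab1 themselves did not pass. In the RefSeq annotation Camkk2 also overlaps P2rx4, Stk11 overlaps Cbarp, Prkag2 overlaps 2900005J15Rik and Prkag2os1, Prkaa2 overlaps Gm36893, and Map3k7 overlaps Gm26254; no library lists Gm36893 or Gm26254. P2rx4 stood far above Camkk2, at 136 ± 3.85 FPKM in DKO and 123 ± 4.52 FPKM in LKO, and was the only one of the overlapping genes that passed (log2 fold change 0.15 ± 0.04 SE, edgeR adjusted p = 0.023). The strand setting of the counting is not given, so reads in those overlaps cannot be assigned with certainty, and the part of P2rx4 in the Camkk2 value was not tested.

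Genes that work with AMPK were taken from 7 lists by role, with 78 genes of which 72 were tested. Of these, 6 were higher and 5 lower in DKO (15.3%, against 14.3% of all genes tested), and their log2 fold changes had a median of 0.01. The share passing is near that of all genes. Without DKO replicate 3, 5 were higher and 3 lower.

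Among partners of the upstream kinases, 2 of 11 genes tested were lower and none higher in DKO, a share of 18.2% next to the 14.3% of all genes. Cab39, for the MO25 scaffold that holds LKB1 in its active form, stood at 121 ± 5.31 FPKM in DKO and 137 ± 6.37 FPKM in LKO (log2 fold change −0.17 ± 0.04 SE, edgeR adjusted p = 0.0117). Camkk1, a paralogue of Camkk2, stood at 4.78 ± 0.258 FPKM in DKO and 5.93 ± 0.336 FPKM in LKO (log2 fold change −0.30 ± 0.09 SE, edgeR adjusted p = 0.0242). Neither call was secure: without DKO replicate 3 the edgeR adjusted p was 0.0711 for Cab39 and 0.12 for Camkk1. Camkk1 was also lost without LKO replicate 2 (0.0609) or LKO replicate 3 (0.101) and in DESeq2 (0.128). The LKB1 pseudokinase partner gene Strada stood at 15.8 ± 0.837 FPKM in DKO and 15.1 ± 0.591 FPKM in LKO, and the TAK1 adaptor gene Tab2 at 82.0 ± 4.34 FPKM in DKO and 80.0 ± 2.09 FPKM in LKO; neither passed.

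Of the kinases related to AMPK that LKB1 also phosphorylates, 1 of 10 tested was higher in DKO and none was lower. Of all genes tested, 14.3% passed in either direction and 7.42% passed as higher. A single call in a list of this size therefore says nothing particular about these kinases. Mark4, for a microtubule affinity regulating kinase, stood at 13.7 ± 1.32 FPKM in DKO and 10.9 ± 1.45 FPKM in LKO (log2 fold change 0.35 ± 0.09 SE, edgeR adjusted p = 0.0117). Without DKO replicate 3 (adjusted p = 0.0897) or LKO replicate 1 (0.0609) it did not pass in edgeR, nor in any of the limma fits (0.0743 to 0.17). The salt-inducible kinase genes Sik1, Sik2 and Sik3 had log2 fold changes between −0.07 and −0.05 and did not pass.

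Among regulators of AMPK at the lysosome and its phosphatases, 1 of 15 genes tested was lower and none higher in DKO (6.67%, against 14.3% of all genes). Fnip2, for a partner of folliculin, which restrains AMPK, stood at 19.6 ± 0.415 FPKM in DKO and 23.4 ± 0.356 FPKM in LKO (log2 fold change −0.24 ± 0.05 SE, edgeR adjusted p = 0.000655). Its paralogue Fnip1 stood at 14.5 ± 0.412 FPKM in DKO and 16.3 ± 1.30 FPKM in LKO (edgeR adjusted p = 0.0924). The 5 Lamtor genes, for the complex that anchors signalling to the lysosome, had log2 fold changes between −0.10 and 0.10, and none passed.

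Of 7 genes tested for AMPK substrates in lipid metabolism, 2 were higher, 2 were lower and 3 did not pass (57.1% called, against 14.3% of all genes). The list is short and was chosen with earlier results of these data known, so this share is no test of an excess. Over the 72 genes tested of all the lists the share was 15.3%. Acaca, for the acetyl-CoA carboxylase of fatty acid synthesis that AMPK inhibits, stood at 4.73, 4.72 and 4.82 FPKM in DKO, against 5.65, 5.69 and 5.75 FPKM in LKO. The groups were far apart next to their spread (log2 fold change −0.25 ± 0.06 SE, edgeR adjusted p = 0.00516). Pnpla2, for the triglyceride lipase ATGL, stood at 32.7 ± 1.18 FPKM in DKO and 27.9 ± 2.58 FPKM in LKO (log2 fold change 0.24 ± 0.06 SE, edgeR adjusted p = 0.0123). It did not pass without DKO replicate 1 (adjusted p = 0.0578), without LKO replicate 1 (0.0553) or in any of the limma fits (0.0679 to 0.143).

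Acacb, the mitochondrial counterpart of Acaca, had the largest fold change of the 72 genes but a very low level, with 0.36, 0.30 and 0.23 FPKM in DKO, against 0.03, 0.05 and 0.08 FPKM in LKO. The log2 fold change was 2.45 ± 0.36 SE (edgeR adjusted p = 5.06e-05). It also lies on chromosome 5, where linked sequence and ALDH2 loss cannot be told apart.

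The other substrate lists had 1 gene each that passed, all higher in DKO. The shares were 16.7% (mTORC1 and autophagy), 11.1% (glucose and mitochondria) and 7.14% (transcription), against 14.3% of all genes tested. Of all genes tested, 7.42% passed as higher, so single calls in lists of this size say nothing particular about AMPK substrates. Ulk1, for the kinase that starts autophagy, stood at 19.96 ± 0.666 FPKM in DKO and 16.5 ± 1.63 FPKM in LKO (log2 fold change 0.29 ± 0.06 SE, edgeR adjusted p = 0.0024), as 1 of 6 genes of mTORC1 and autophagy. Tbc1d4, for the Rab GTPase-activating protein AS160 of glucose transporter traffic, stood at 10.3 ± 0.560 FPKM in DKO and 7.76 ± 0.615 FPKM in LKO (log2 fold change 0.42 ± 0.07 SE, edgeR adjusted p = 0.000113), as 1 of 9 genes of glucose and mitochondria. Foxo4, for a forkhead transcription factor, stood at 9.11 ± 0.229 FPKM in DKO and 7.36 ± 0.491 FPKM in LKO (log2 fold change 0.32 ± 0.08 SE, edgeR adjusted p = 0.00558), as 1 of 14 transcription genes. The position of Ulk1, Tbc1d4 and Foxo4 relative to Aldh2 was not examined, and the part of linked sequence in their values was not tested. Those not passing included Tfeb, for the lysosomal gene regulator, at 16.9 ± 0.752 FPKM in DKO and 16.3 ± 0.653 FPKM in LKO.

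**Figure D4:**
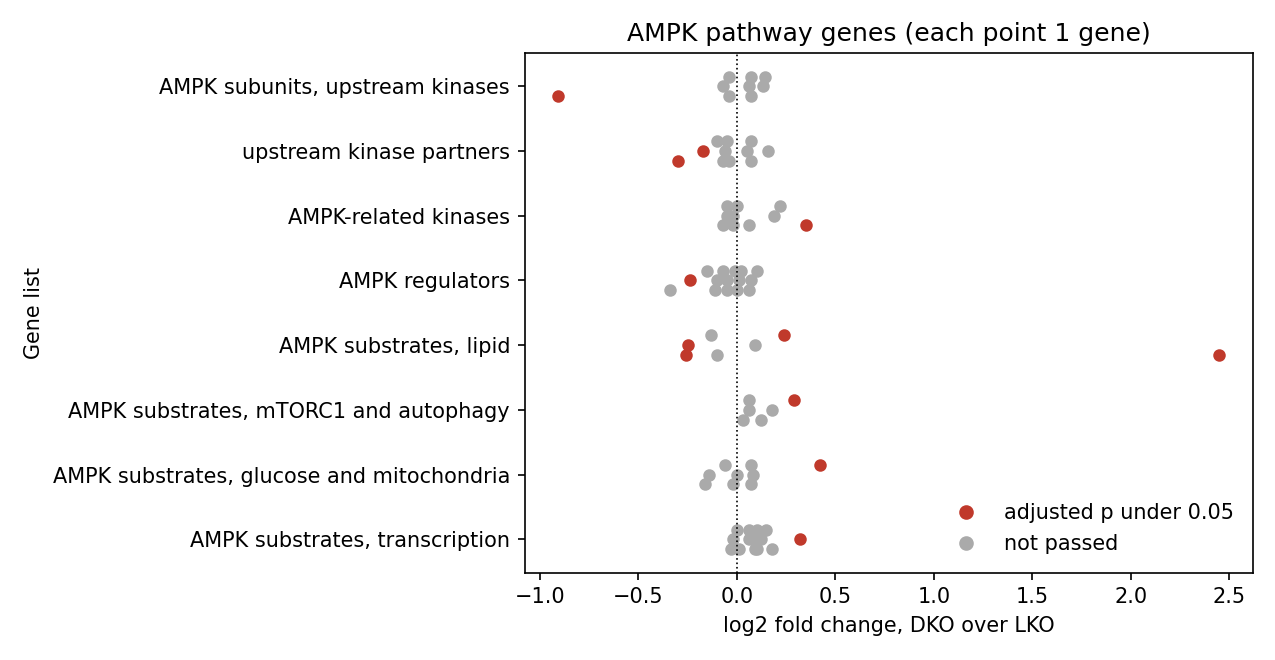
Log2 fold change, DKO over LKO, of each tested gene by list (edgeR); red points passed an adjusted p of 0.05 and grey points did not. Most points lie close to 0, with Prkaa2 at −0.91 and Acacb at 2.45 furthest from it.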

How the data were processed

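Per the file headers, every gene has an expected count, a value in FPKM and the length of its transcript. The expected count is the estimate of the authors for the reads of a gene, unscaled; FPKM is that count scaled by the authors to length and library size. Bowtie 0.12.2 and the build mm8 come from the submitters' processing notes; counting tool and strand setting: not given in the sources used here. Genes under 0.01 FPKM are not listed, and an unlisted gene counted as 0. Of 16871 NCBI gene numbers, 16832 matched a symbol in RefSeq of GRCm38, used for names, gene order and promoter sequences.

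Expected counts were rounded and tested with the edgeR 4.0.16 quasi-likelihood test in R 4.3.3 (filterByExpr, TMM, no block), with Benjamini-Hochberg adjustment across 11809 genes. Standard errors were computed as the absolute log2 fold change over the root of F. Alternatives used DESeq2 1.42.0 and limma 3.58.1 on log2(FPKM + 1), a scale that understates the change of low genes. The scripts were tested on simulated counts. The genes, lists and tests were chosen with earlier results of these data known. Named are the 9 genes, Aldh2, in each list up to 3 genes of smallest p in each direction among those that passed, and the 3 genes most like Prkaa2; others are examples chosen after their values were seen. A few genes within this choice are not reported here. Each library counted as 1 sample. Between libraries of a group, chi-square per degree of freedom was 1.68 to 3.71, so they were not copies of the same reads. This value cannot show whether they came from separate mice.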

Additional observations from a re-analysis of the deposited data

How the results depend on the processing

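Of the 9 AMPK genes, Prkaa2 was the only one called under any alternative run; for the other 8 the adjusted p was at least 0.125 in all 128 values. Prkaa2 kept its direction in 13 alternatives and its call in 11; DESeq2 and a threshold of 0.01 each left 0 AMPK genes lower. The limma fits with a minimum of 1 FPKM do not hold Prkaa2 and called 0 AMPK genes lower at pseudocounts of 1, 0.1 and 5; with no filter its log2 fold change was −0.20 (adjusted p = 0.0398). Some genes that did not pass turned sign when a library was left out: Prkab2 ranged from −0.16 to 0.0035, Prkag2 from −0.0044 to 0.13 and Camkk2 from −0.08 to 0.01 (log2 fold change).

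Over all genes, limma called 561, 557 and 563 genes higher in DKO at pseudocounts of 1, 0.1 and 5, and with no filter 425 higher and 382 lower, against 876 and 813 in edgeR; at a threshold of 0.01, 553 were higher and 452 lower. Of the pathway genes, limma called 3 higher at pseudocount 1, 3 at 0.1 and 3 at 5, and with no filter 2 higher and 1 lower; a threshold of 0.01 left 3 lower. With a library left out, between 3 and 7 pathway genes were lower and 5 or 6 higher. With no filter, limma also lost Ulk1 (adjusted p = 0.104), Foxo4 (0.059), Acaca (0.0903), Cab39 (0.0962) and Camkk1 (0.101); Acaca was lost at pseudocounts of 1 (0.0519) and 5 (0.0521) as well. The cause was not tested.

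Same-numbered libraries did not deviate together (correlation of deviations 0.018, −0.056 and −0.027 for numbers 1 to 3). A replicate block gave 810 genes higher and 743 lower, and Prkaa2 kept its call (adjusted p = 0.0171).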
